A study of Mus musculus with 4 samples.

Results

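The G1 cyclins and their kinases drive a cell from G1 into S phase, and 10 genes of this machinery were followed in the mouse stomach: the D-type cyclins Ccnd1, Ccnd2 and Ccnd3, the E-type cyclins Ccne1 and Ccne2, the kinases Cdk4, Cdk6 and Cdk2, the inhibitor Cdkn1b and the phosphatase Cdc25a. They are members by symbol, out of 46095 gene rows, and the choice was made with earlier results of these data known. RNA sequencing of stomach tissue at 12 weeks of age compared 2 WT with 2 MYC-KI mice, all C57BL/6. The comparison asked which transcripts differ when c-Myc is overexpressed in the stomach. The study describes the WT animals as Myc fl/fl littermates and names no Cre for them. Its breeding scheme draws the floxed Myc allele as a CAG promoter, a loxP-flanked stop cassette, Myc and hCD2, so that WT carries it with the stop cassette in place. The MYC-KI animals are Atp4b-cre;MycOE, which the study defines as Atp4b-cre;Myc fl/+, so the genotypes also differ in copies of the floxed allele. In MYC-KI the promoter of Atp4b, a subunit of the gastric acid pump, places Cre in the parietal cell lineage, and Cre removes the stop cassette.

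In G1, D-type cyclins bind CDK4 or CDK6, and these kinases phosphorylate the retinoblastoma protein, which then releases E2F factors. E2F factors switch on cyclin E, and cyclin E with CDK2 completes the phosphorylation and starts DNA replication. The product of Cdkn1b, p27, blocks cyclin E with CDK2, while CDC25A removes inhibitory phosphates from CDK2. MYC binds with MAX to the E-box CACGTG, and several of these genes are widely described as MYC targets. The gastric epithelium renews throughout life from dividing cells of the isthmus, while parietal and chief cells rarely divide.

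The samples held between 30260305 and 41463647 counts each. In the deposited table the MYC-KI counts do not stand beside their own gene names: across all rows the correlation of log counts between genotypes was 0.524, against 0.986 within WT and 0.983 within MYC-KI. Assigning both MYC-KI columns in row order to the names sorted by character code brought it to 0.985, and all values given here are from that order unless stated. Each of the 10 genes moved by 6 rows, and over the 61 rows around each gene the correlation between genotypes rose from between -0.063 and 0.345 to between 0.956 and 0.983. WT replicate 2 carried 17846 counts of Xist and 5 of Ddx3y, whereas the other 3 samples had 85 to 201 and 1861 to 2623, so this library stood apart as female. The introduced c-Myc is described by the study as human and has no row of its own here. The row of mouse Myc had counts of 1062 and 759 in WT and 735 and 1091 in MYC-KI (log2 fold change -0.35, SE 0.14, adjusted p = 0.163). Whether reads of the transgene reach this row was not tested, so the row neither checks the labels nor goes against them.

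The label stomach held in WT, where Atp4a had a mean of 7812 CPM, the unit of level used throughout, which divides counts by a TMM-normalized library size. Gland cell markers differed widely between the genotypes, and these values stand beside every result below. The summed level of 8 parietal cell markers was 12569 and 12820 CPM in WT and 1671 and 1636 CPM in MYC-KI, and 7 of the 8 fell. Of 5 chief cell markers 4 fell, from 84800 and 80460 to 1198 and 1517 CPM, and 4 of 4 surface mucous cell markers fell, from 44861 and 53527 to 10950 and 17183 CPM. Mucous neck cell markers passed the test in 0 of 2 genes, at 9857 and 12187 against 19702 and 8661 CPM. Mast cell markers rose in 3 of 5 genes, from 67.3 and 89.5 to 220.5 and 230.1 CPM, while 3 of 8 tested leukocyte markers (196 and 208 against 83.8 and 78.5 CPM) and 4 of 5 endothelial and fibroblast markers (1127 and 1301 against 391 and 580 CPM) fell. Forestomach squamous markers (2674 and 1527 against 897 and 4502 CPM) and smooth muscle markers (7635 and 4824 against 2478 and 5266 CPM) varied within each genotype, with 0 of 9 and 0 of 6 called. Pancreatic acinar markers summed to 9957 and 8730 CPM in WT and 24.7 and 28.3 CPM in MYC-KI, with 2 of 4 tested genes falling. Pla2g1b made up 9799 and 8602 CPM of this in WT and 18.9 and 21.3 CPM in MYC-KI, while Cpa1, Prss2 and Try4 were at 0 in all 4 libraries. Pnlip had counts of 1 and 0 in WT and 18 and 7 in MYC-KI, and Ctrb1 and Cela3b had 12 or fewer in each sample. Without either MYC-KI sample, or with DESeq2 size factors, 2 of the 5 mast cell markers were called, and library-size scaling left 3 of 4 surface mucous and 3 of 5 endothelial and fibroblast calls. Without MYC-KI replicate 1, 4 of the 9 squamous markers were called higher, and without MYC-KI replicate 2, 1 of the 2 mucous neck markers. The part of these markers in the results was not tested. In stomach tissue, fewer cells of a type and less RNA per cell cannot be told apart.

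Among these G1 genes, transcripts of cyclin D1, cyclin E1 and both D-type cyclin kinases were higher in MYC-KI. Ccnd1, Ccne1, Cdk4 and Cdk6 rose by 1.51-fold to 2.17-fold, whereas Ccnd2, Ccnd3, Cdk2, Cdkn1b and Cdc25a did not pass the test, and Ccne2 reached 2.02-fold with an adjusted p of 0.0765. A gene was called by edgeR's quasi-likelihood test at a Benjamini-Hochberg adjusted p under 0.05 over all tested genes and a change over 1.5-fold. All 10 genes were tested, and 4 were called, against 10.7% of the 17643 genes tested. All 4 were called higher, against 5.65% of all genes, and 0 were called lower, against 5.08%. Without the fold threshold the 4 genes were called as well, against 12.9% of all genes. In 6 of the 10 genes both MYC-KI samples lay above both WT samples, which held for 33.3% of all genes, and in 2, Cdkn1b and Cdc25a, both lay below, which held for 31.5%. The median log2 fold change was 0.46 over the 10 genes and 0.01 over all genes. These calls rested on both WT samples: without WT replicate 1 or without WT replicate 2, edgeR called 0 of all genes and 0 of the 10 (3553 and 3410 genes at an unadjusted p under 0.05, DESeq2 not run), and the 4 genes kept log2 fold changes of 0.58 to 1.16 with adjusted p between 0.201 and 0.258. The fit without WT replicate 2 holds males only. Scaling to library size alone moved the median of all genes from 0.01 to 0.23, and there Ccnd2 (0.14), Ccnd3 (0.21), Cdkn1b (0.17) and Cdc25a (0.08), none of them called in either fit, turned positive. Ccnd2 (0.053) was also positive without MYC-KI replicate 1, and Ccnd3 without that sample (0.049) or without WT replicate 2 (0.083).

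**Figure D1:**
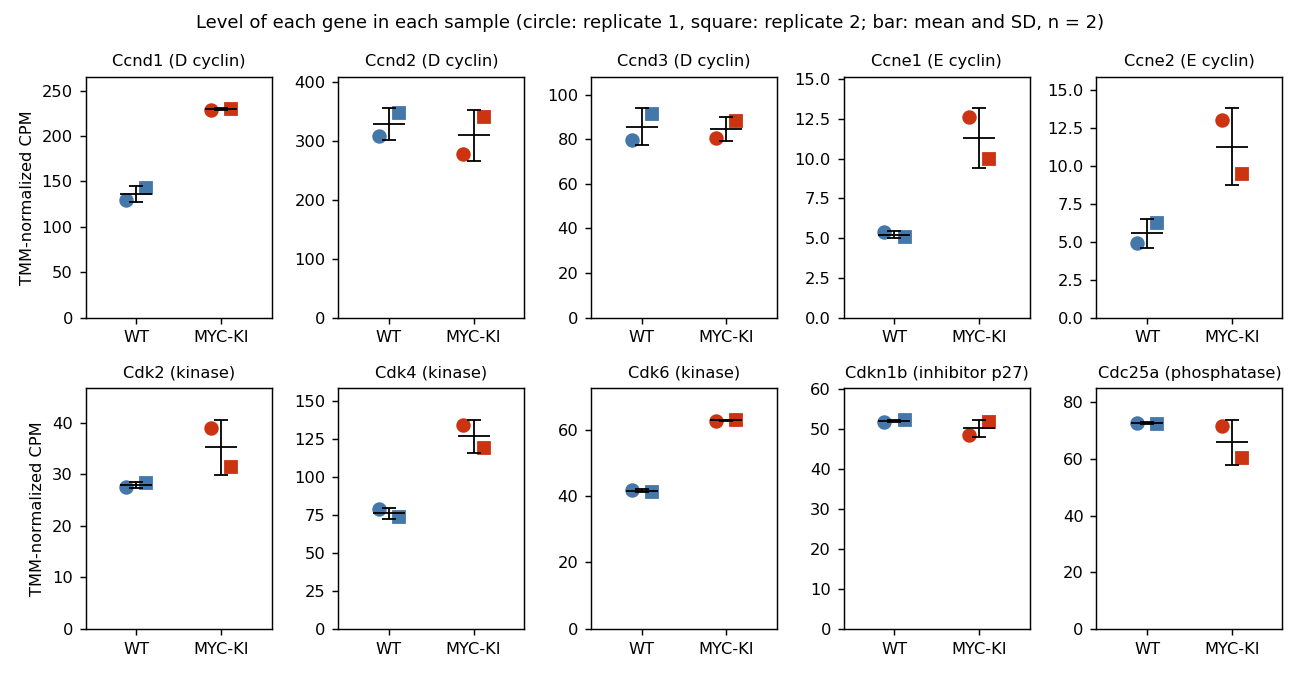
Normalized level of each of the 10 genes in CPM in each of the 2 WT and 2 MYC-KI samples, with points for samples and bars for group means. Both MYC-KI points lie above both WT points for Ccnd1, Ccne1, Ccne2, Cdk4, Cdk6 and Cdk2, while the points of Ccnd2 and Ccnd3 are interleaved.

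Among the D-type cyclins, only Ccnd1 passed the test. Ccnd1 (ENSMUSG00000070348.5; GRCm38 chr7:144929931-144939925, minus strand), whose product is the cyclin most often induced by growth factors, was counted 4356 and 3977 times in WT and 7769 and 10290 times in MYC-KI. These are levels of 129.7 and 142 CPM against 229 and 230.2 CPM, so the genotypes did not overlap and the MYC-KI samples were nearly equal. The mean rose from 136 ± 9.01 to 229.6 ± 0.919 CPM (SD, n = 2 each), with a log2 fold change of 0.75 (SE 0.09, 95% interval 0.52 to 0.99, adjusted p = 0.0228). When any 1 sample was left out, it lay between 0.69 and 0.82.

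Ccnd2 (chr6:127125162-127152193, minus strand) and Ccnd3 (chr17:47505051-47599691, plus strand) encode D-type cyclins that can stand in for cyclin D1 in many tissues. Ccnd2 had counts of 10382 and 9694 in WT and 9451 and 15204 in MYC-KI, or 309, 347, 278 and 340.1 CPM. The genotypes overlapped, with a log2 fold change of -0.09 (SE 0.14, interval -0.45 to 0.28, adjusted p = 0.704). Ccnd3 had counts of 2678 and 2553 in WT and 2742 and 3955 in MYC-KI, or 79.7, 91.5, 80.8 and 88.5 CPM. Its MYC-KI values lay between the WT values, and the log2 fold change was -0.02 (SE 0.11, interval -0.30 to 0.27, adjusted p = 0.933). The interval of neither gene reaches the 1.5-fold threshold in either direction.

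Because the Ccnd1 transcript rose and the others did not pass the test, the mix of D-type cyclin transcripts was computed per kilobase of the principal transcript. Ccnd1 made up 28.6% and 28% of the summed D-type cyclin level in WT and 42.7% and 39.2% in MYC-KI. Ccnd2 made up 40.3% in each WT sample and 30.7% and 34.2% in MYC-KI, and Ccnd3 31.1% and 31.8% against 26.7% and 26.6%. The leading D-type cyclin transcript was thus Ccnd2 in both WT samples and Ccnd1 in both MYC-KI samples. With union exon lengths the leaders were the same, Ccnd2 in WT (47.3% and 47.6%, against 39.6% and 39.0% for Ccnd1) and Ccnd1 in MYC-KI (55.6% and 51.4%, against 33.9% and 38.0% for Ccnd2). The ratio of Ccnd1 to Ccnd2 in CPM was 0.420 and 0.410 in WT and 0.822 and 0.677 in MYC-KI, a log2 difference of 0.85 with no overlap (exact two-sided permutation test, p = 0.333, the smallest this design allows). Against Ccnd3 the ratio was 1.63 and 1.56 in WT and 2.83 and 2.60 in MYC-KI, a log2 difference of 0.77 (exact permutation test, p = 0.333).

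The catalytic partners Cdk4 and Cdk6 rose to a similar extent. Cdk4 (chr10:127063534-127067920, plus strand) was counted 2636 and 2053 times in WT and 4555 and 5309 times in MYC-KI. In CPM this was 78.5 and 73.5 against 134 and 119, without overlap. The mean went from 76.0 ± 3.50 to 126 ± 10.9 CPM, with a log2 fold change of 0.73 (SE 0.10, interval 0.47 to 1.002, adjusted p = 0.0278).

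Cdk6 (chr5:3341485-3531008, plus strand), the second kinase that D-type cyclins activate, was counted 1405 and 1152 times in WT and 2126 and 2810 times in MYC-KI. Its level was 41.8 and 41.3 CPM against 62.6 and 62.9 CPM, the tightest pair of groups among the 4 called genes relative to their means. The log2 fold change was 0.59 (SE 0.08, interval 0.39 to 0.80, adjusted p = 0.0253), just over the 1.5-fold threshold of 0.585, and DESeq2 and its size factors in edgeR put it just under. Per kilobase, Cdk4 made up 91.3% and 90.9% of the sum of both kinases in WT and 92.3% and 91.4% in MYC-KI. The ratio of Cdk4 to Cdk6 in CPM was 1.88 and 1.78 in WT and 2.14 and 1.89 in MYC-KI, a log2 difference of 0.14 (exact permutation test, p = 0.333).

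**Figure D2:**
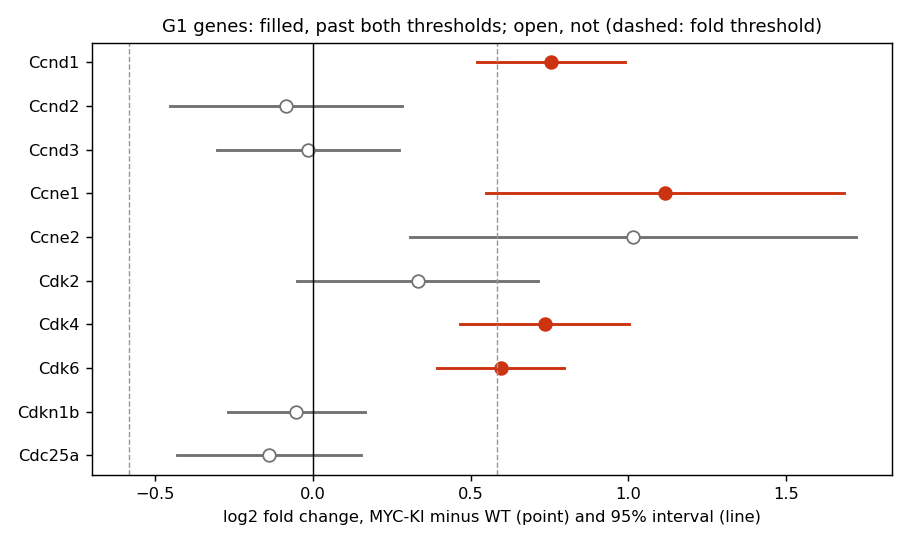
Log2 fold change of each of the 10 genes in MYC-KI against WT with its 95% interval from the edgeR fit, filled where the gene was called. The intervals of Ccnd1, Ccne1, Cdk4, Cdk6 and Ccne2 lie above 0, that of Ccne2 with an adjusted p of 0.0765. Those of Ccnd2, Ccnd3, Cdk2, Cdkn1b and Cdc25a span 0.

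The promoter of Cdk4 is shown because this gene rose and its promoter holds several copies of the MYC-MAX word, and short stretches of Cdk6, Cdk2 and Cdc25a show the other words found. The 250 bases before the start were taken from RefSeq promoters (GRCm38.p6) and searched on both strands for CACGTG and for the E2F-type words TTTCCCGC, TTTGGCGC and TTTCGCGC, which do not overlap in the windows shown. Of the 10 genes, 7 had an entry: Ccnd3, Ccne1, Cdk2, Cdk4, Cdk6, Cdkn1b and Cdc25a. Capitals mark the word, and each sequence reads 5′ to 3′ on the gene's own strand.
Cdk4, chr10:127063285-127063534 (plus strand): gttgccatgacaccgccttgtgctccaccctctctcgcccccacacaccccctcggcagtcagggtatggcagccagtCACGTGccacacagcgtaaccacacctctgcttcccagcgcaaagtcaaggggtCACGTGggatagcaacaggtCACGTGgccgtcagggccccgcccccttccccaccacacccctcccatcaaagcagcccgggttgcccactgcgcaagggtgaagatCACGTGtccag
Cdk6, chr5:3343661-3343690 (plus strand): gttctgcggcccCACGTGggtgaacccccg
Cdk2, chr10:128705173-128705202 (minus strand): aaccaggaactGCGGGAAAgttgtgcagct
Cdc25a, chr9:109875501-109875530 (plus strand): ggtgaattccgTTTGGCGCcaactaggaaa

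The Cdk4 window held 4 E-boxes, at 172, 118, 98 and 11 bases before the start. Over the first listed RefSeq promoter of each of 27025 genes, 6.05% held at least 1 E-box and 5 genes, or 0.0185%, held 4 or more. The Cdk6 window held 1 E-box, 220 bases before the start, and this stretch lies in an intron of an annotated Cdk6 transcript that starts further upstream. An E2F-type word, found in 1.59% of all these promoters, stood in Cdk2 140 bases before the start (as GCGGGAAA, TTTCCCGC on the other strand, in a stretch of which 23 of 30 bases are exonic in a Pmel transcript) and in Cdc25a at 67 bases. No word was found in the windows of Ccnd3, Ccne1 and Cdkn1b. These matches describe letters, and no binding was measured.

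Both E-type cyclins were expressed at low levels and had means about 2-fold higher in MYC-KI, and Ccne1 was called. Ccne1 (chr7:38097984-38107534, minus strand), which activates CDK2 at the start of S phase, had counts of 180 and 141 in WT and 428 and 446 in MYC-KI. The level rose from 5.36 and 5.05 to 12.6 and 9.98 CPM, or 2.17-fold. The log2 fold change was 1.12 (SE 0.21, interval 0.55 to 1.69, adjusted p = 0.0443), and without MYC-KI replicate 1 it was 0.94 with an adjusted p of 0.0849.

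Ccne2 (chr4:11191351-11204779, plus strand), the paralog with the same partner, had counts of 164 and 174 in WT and 442 and 422 in MYC-KI. The level was 4.88 and 6.23 CPM in WT and 13.0 and 9.44 CPM in MYC-KI, with no overlap. The log2 fold change of 1.01 (SE 0.26, interval 0.31 to 1.72, adjusted p = 0.0765) did not pass the test, while DESeq2 gave an adjusted p of 0.0124 for the same change. Of the summed E-type cyclin level per kilobase, Ccne1 made up 62.3% and 54.9% in WT and 59.3% and 61.4% in MYC-KI. The ratio of Ccne1 to Ccne2 overlapped between the genotypes (1.10 and 0.810 against 0.968 and 1.06, exact permutation test, p = 1).

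Cdk2, the kinase that E-type cyclins activate, was higher in both MYC-KI samples without passing the test. Cdk2 (chr10:128697939-128705031, minus strand) had counts of 925 and 793 in WT and 1324 and 1405 in MYC-KI, or 27.5, 28.4, 39.0 and 31.4 CPM. MYC-KI replicate 2 lay close to WT, and the log2 fold change was 0.33 (SE 0.14, interval -0.05 to 0.71, adjusted p = 0.187). The ratio of Cdk4 to Cdk2 was 2.85 and 2.59 in WT and 3.44 and 3.78 in MYC-KI, a log2 difference of 0.41 (exact permutation test, p = 0.333).

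Cdkn1b (chr6:134920401-134925513, plus strand), which encodes the inhibitor p27, did not differ detectably. Its counts were 1739 and 1455 in WT and 1648 and 2306 in MYC-KI, and its levels 51.8, 52.1, 48.6 and 51.6 CPM. The log2 fold change was -0.05 (SE 0.08, interval -0.27 to 0.16, adjusted p = 0.689), the interval of which does not reach the 1.5-fold threshold. The ratio of Cdk4 to Cdkn1b was 1.52 and 1.41 in WT and 2.76 and 2.30 in MYC-KI, a log2 difference of 0.79 without overlap (exact permutation test, p = 0.333). The abundance of p27 protein is set largely by its degradation, which counts of RNA do not measure.

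Cdc25a (chr9:109875579-109893895, plus strand) encodes the phosphatase that activates CDK2. It had counts of 2447 and 2021 in WT and 2428 and 2697 in MYC-KI, or 72.9, 72.4, 71.5 and 60.3 CPM. MYC-KI replicate 1 was close to WT and replicate 2 was lower, with a log2 fold change of -0.14 (SE 0.11, interval -0.43 to 0.15, adjusted p = 0.426). The related phosphatase gene Cdc25b rose from 34.9 and 34.7 to 59.1 and 62.7 CPM (log2 fold change 0.81, adjusted p = 0.0200). The ratio of Cdc25b to Cdc25a was 0.479 in both WT samples and 0.827 and 1.04 in MYC-KI, a log2 difference of 0.95 (exact permutation test, p = 0.333, of 7 ratios compared in all, 6 of them without overlap and each at that smallest p, with a Benjamini-Hochberg adjusted p of 0.389).

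Ordered by level per kilobase of the principal transcript, WT held Ccnd2 (51.9 ± 4.26 CPM per kilobase), Ccnd3 (40.5 ± 3.92), Cdk4 (37.0 ± 1.71), Ccnd1 (36.4 ± 2.41), Cdc25a (20.0 ± 0.0919), Cdk2 (12.5 ± 0.269), Cdkn1b (11.4 ± 0.0495), Cdk6 (3.61 ± 0.0347), Ccne1 (2.60 ± 0.110) and Ccne2 (1.85 ± 0.318). In WT the values of Ccnd3, Cdk4 and Ccnd1 overlapped over the samples, though Ccnd3 stood above Ccnd1 within each sample (37.7 against 34.7 and 43.3 against 38.1). In MYC-KI the order was led by Cdk4 (61.6 ± 5.32) and Ccnd1 (61.4 ± 0.240), which did not differ beyond their spread, ahead of Ccnd2 (48.9 ± 6.89) and Ccnd3 (40.1 ± 2.57). Cdc25a (18.2 ± 2.19) and Cdk2 (15.7 ± 2.40) overlapped there, and Cdkn1b followed at 11.0 ± 0.467. At the low end Ccne1 (5.65 ± 0.931) overlapped with Cdk6 (5.45 ± 0.0141), and Ccne2 was at 3.74 ± 0.842. Several places depend on the transcript assumed. With union exon lengths Ccnd3 stood at 9.75 in WT and 9.64 in MYC-KI, and Cdkn1b (11.4 and 11.0) ranked above Cdc25a (9.05 and 8.22) and Cdk2 (4.50 and 5.66). Ccnd1 then stood above Cdk4 in both genotypes, at 28.9 ± 1.91 against 23.4 ± 1.07 in WT and 48.8 ± 0.198 against 38.9 ± 3.36 in MYC-KI.

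Genes around this switch were described from lists of their own. Over all genes tested, 5.65% were called higher and 5.08% lower, and the median log2 fold change was 0.01. No called gene of these lists changed sign under the other scalings, but with library-size scaling Tfdp2 and Cdkn2b missed the adjusted p (0.0786 and 0.0608) and Wee1 the fold threshold (-0.45). Of 13 pocket proteins and E2F genes, 4 rose and 1 fell, with a median log2 fold change of 0.38. Tfdp1, the DNA-binding partner of E2F factors and the most abundant of the list over the 4 samples, rose from 71.0 and 67.9 to 152 and 135 CPM (log2 fold change 1.05, adjusted p = 0.0188). The activator E2f3 (1.04), the repressor E2f4 (0.62) and the atypical repressor E2f8 (0.96) rose as well, whereas Tfdp2, the paralog of Tfdp1 and the more abundant of both in WT, fell by 0.64 on the log2 scale, from 124 and 106 to 69.1 and 78.8 CPM. Without MYC-KI replicate 1, E2f4, E2f8 and Tfdp2 were not called (adjusted p 0.0720 to 0.0807).

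Of 17 tested S phase genes downstream of E2F, 9 rose, 0 fell and all 17 had a log2 fold change above 0, with a median of 0.64. They were the 6 subunits of the replicative helicase, Mcm2 to Mcm7, together with the factors that load it, Cdc6, Cdt1 and Orc1. Cdt1 rose from 13.0 and 14.8 to 37.3 and 31.6 CPM (log2 fold change 1.31), and Orc1 from 2.11 and 1.65 to 6.31 and 5.53 CPM (1.65). The most abundant over the 4 samples, the replication clamp Pcna, was at 75.0 and 66.2 against 92.2 and 94.8 CPM (0.41, adjusted p = 0.0631) and did not pass, while in MYC-KI Mcm6 stood above it, at 98.8 and 100.5 CPM. Cdc45 was not tested, with counts of 6 and 2 in WT and 6 and 13 in MYC-KI. The calls fell to 2 of 18 without MYC-KI replicate 1, and were 8 of 17 without MYC-KI replicate 2.

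Of 5 cyclins and kinases of S and M phase, 2 rose, Ccna2 (46.7 and 41.7 against 81.9 and 65.5 CPM, log2 fold change 0.74) and Ccnb1 (16.3 and 15.3 against 35.8 and 26.7 CPM, 0.98), and the median was 0.87. These calls went to 0 without MYC-KI replicate 1 and to 4 without MYC-KI replicate 2. Among 8 proliferation markers 1 was called, the mitotic kinase gene Aurkb (0.94, adjusted p = 0.0395), and the most abundant, Mki67, had a mean of 141 ± 5.31 CPM in WT and 186 ± 19.8 CPM in MYC-KI (0.40, adjusted p = 0.0821). Of these 8 markers 0 were called without MYC-KI replicate 1 and 4 without MYC-KI replicate 2. DESeq2 called 6 of them, and edgeR 8 with library-size scaling and 5 of them with no filter. Of 4 genes of CDC25 phosphatases and the kinases that oppose them, Cdc25b rose and Wee1, whose product holds cyclin-dependent kinases inactive, fell from 49.0 and 47.4 to 29.9 and 30.4 CPM (log2 fold change -0.68, adjusted p = 0.0255).

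Of 6 CDK inhibitor genes other than p27, 1 rose and 1 fell, with a median of -0.10, and both calls were lost when either MYC-KI sample was left out (adjusted p 0.0690 to 0.106). Cdkn2a passed the filter on counts only through MYC-KI. With at least 10 counts required in every sample it was not tested, and 0 of the 5 inhibitors tested were called higher. Cdkn2a had 0 counts in both WT samples and 18 and 34 in MYC-KI (adjusted p = 0.0421), at least 6.56-fold higher when a floor of 3 counts is taken for each WT library. Cdkn2b, its neighbour, which encodes the CDK4 and CDK6 inhibitor p15, fell from 23.9 and 30.4 to 15.5 and 14.05 CPM (log2 fold change -0.88, adjusted p = 0.0471). The most abundant, Cdkn1a, was at 149 and 175 CPM in WT and 133 and 196 CPM in MYC-KI and did not pass (0.02, adjusted p = 0.953). Of 6 SCF ligase components that degrade p27 and cyclin E, Cks1b, the cofactor that presents p27, rose from 8.61 and 7.24 to 17.0 and 15.5 CPM (1.04, adjusted p = 0.0367, or 0.0699 without MYC-KI replicate 1), and the most abundant, Skp1a, was at a log2 fold change of 0.09. Of the 3 genes of the CDK-activating kinase, led by Cdk7 (0.17, adjusted p = 0.466), 0 were called.

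**Figure D3:**
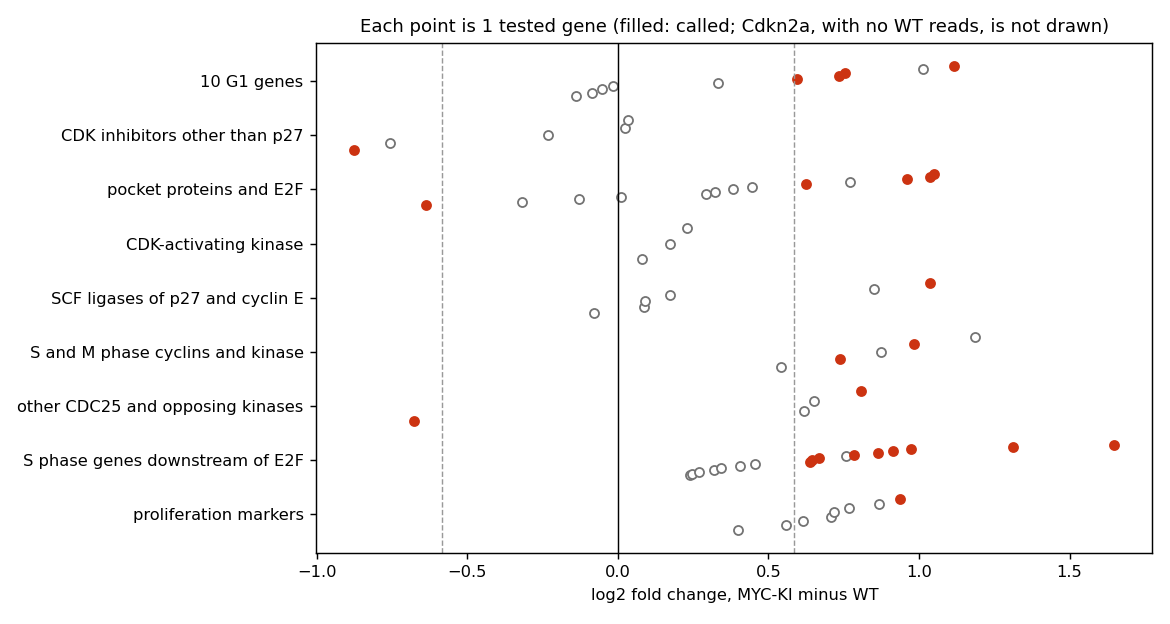
Log2 fold change in MYC-KI against WT of the tested genes of each list, 1 point a gene, filled where called. Cdkn2a, called higher with no WT counts, is not drawn. The S phase genes lie above 0 in all 17 cases, with a median of 0.64, while the CDK inhibitors drawn spread on both sides of 0.

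As deposited, with no re-sorting, the same test called 8 of the 10 genes (2 higher, 6 lower), against 84.1% of the 22083 genes tested. There the counts beside Ccnd1 in MYC-KI are those of Ccnb1 in the sorted order, those beside Cdk4 are those of Cdk19, and those beside Cdkn1b are those of Cdkl1. Ccnd1 then stood at a log2 fold change of -2.06, Ccnd2 at -8.14 and Cdkn1b at -5.82, while Ccne2, with the counts of Ccnd1, stood at 5.43.

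**Figure D4:**
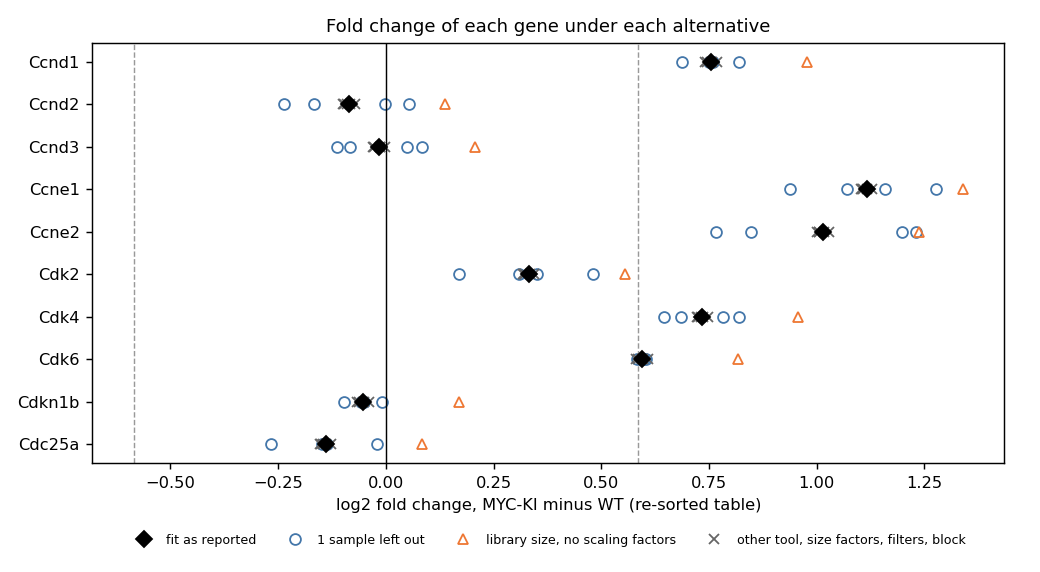
Log2 fold change of the 10 genes in the re-sorted table under each processing alternative, with the fit as reported as the reference. The table as deposited is not drawn. Library-size scaling turned Ccnd2, Ccnd3, Cdkn1b and Cdc25a positive.

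Several of these genes share exonic sequence with a gene on the opposite strand, and whether the counting used strand is not given in the sources used here. Those with a row under the same or an older name, looked up after the values were seen, were tested in the same way, and the antisense genes Gm43126 over Ccnd2 and Gm17590 over Cdk6 were not analysed here. Tspan31 beside Cdk4 had counts of 2688 and 2211 in WT and 2752 and 3547 in MYC-KI (log2 fold change 0.01, adjusted p = 0.934), and Oraov1 beside Ccnd1 had 926 and 864 against 778 and 1074 (-0.32, adjusted p = 0.149). Bysl beside Ccnd3 (0.60, adjusted p = 0.0842), Ints8 beside Ccne2 (0.14, adjusted p = 0.591) and Pmel beside Cdk2 (0.44, adjusted p = 0.391) did not pass the test either. 9330179D12Rik beside Ccnd2 had 12 counts or fewer in each sample, and the pseudogene Ccnd3-ps had 0 in all 4.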

How the data were processed

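Stomach RNA of 2 WT and 2 MYC-KI mice was sequenced (the design text says triplicate, and 2 per genotype were analysed here). The authors deposited 1 table of raw counts per gene, not normalized. The submitters' processing notes name HISAT2 and mm10; the version, counting tool, annotation and strand setting are not given in the sources used here. No label ties samples to separate litters or batches, so p-values measure the spread between these samples.

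Gene names were sorted by character code and the values of both MYC-KI columns were placed beside them in their existing order, while WT stayed as deposited. This step uses no measured value. Genes were then tested over the whole table with edgeR 4.0.16 in R 4.3.3 (TMM, filterByExpr, glmQLFit and glmQLFTest, genotype only, Benjamini-Hochberg), and called at an adjusted p under 0.05 where the change also exceeded 0.585 on the log2 scale in either direction (1.5-fold), with a common biological coefficient of variation of 0.295. CPM are TMM-normalized, and levels per kilobase use GENCODE M21 transcript lengths (GRCm38), as do the gene coordinates. Ratios were compared with exact permutation tests (scipy 1.17.1). The fit was tested on simulated data. Intervals of fold changes come from this fit and include the spread between samples, while the floor of 3 counts covers counting error only, at totals of 30260305 to 41463647.

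The 10 genes are always named, and genes of other lists only when called or as the most abundant of the list, apart from Cdc45 (not tested), the neighbours on the opposite strand, Myc and the sex-linked genes. The genes and lists were chosen with earlier results of these data known. Alternatives were DESeq2 1.42.0, 2 other scalings, 2 other filters, 2 other fold thresholds, the table as deposited, the replicate number as a block and leaving out each sample. The planned comparison of proteins was not done.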

Additional observations from a re-analysis of the deposited data

How the results depend on the processing

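With 2 samples per genotype the spread is poorly known, and leaving 1 out assumes that the lone sample varies like the others. Main calls were 1892 of 17643 genes and 4 of the 10. DESeq2 called 3234 of 26731 genes (4 of the 10), and library-size scaling 3011 of 17643 (5 of the 10). With that scaling the share called higher went from 52.6% to 75.5% and the median of all genes from 0.01 to 0.23. A 2-fold threshold called 1113 of 17643 genes (1 of the 10), and the table as deposited 18580 of 22083 (8). Leaving out each sample gave 0 to 2470 genes and 0 to 4 of the 10, with 0 without either WT sample, where the cause was not tested. Replicate numbers only name the samples (correlation of deviations 0.0674), and with them as a block 114 genes and 0 of the 10 were called, Ccnd1 at 0.76, Ccne1 at 1.11, Cdk4 at 0.73 and Cdk6 at 0.59 (adjusted p 0.0582 to 0.0886). Library-size scaling reversed the signs of Ccnd2 (0.14), Ccnd3 (0.21), Cdkn1b (0.17) and Cdc25a (0.0833), none of them called, and put Ccne2 (1.24) past the threshold, as did DESeq2 (1.01) and no filter (1.03). Cdk6 lost its call with DESeq2 (0.585, adjusted p 6.40e-05) and with its size factors in edgeR (0.58). As deposited, log2 fold changes were -2.06 for Ccnd1, -8.14 for Ccnd2, -1.76 for Ccnd3, 5.43 for Ccne2, -0.28 for Cdk2, -0.25 for Cdk4, -0.94 for Cdk6, -5.82 for Cdkn1b and -1.09 for Cdc25a, since other genes' counts then stand in MYC-KI. Leaving out each sample gave 0.69 to 0.82 for Ccnd1, -0.24 to 0.053 for Ccnd2, -0.11 to 0.083 for Ccnd3, 0.94 to 1.28 for Ccne1, 0.645 to 0.82 for Cdk4, 0.58 to 0.60 for Cdk6, 0.77 to 1.23 for Ccne2, 0.17 to 0.48 for Cdk2 (lowest without MYC-KI replicate 1), -0.097 to -0.0088 for Cdkn1b and -0.27 to -0.021 for Cdc25a (closest to 0 without MYC-KI replicate 2). The log2 fold changes of the 4 called genes stayed above 0 under each alternative but the table as deposited, where of the 4 only that of Ccne1 (2.51) did.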

Other observations

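The remaining cyclin and CDK families, chosen after the values of the G1 genes were seen, were read in the same fit. Over all genes tested, 5.65% were called higher and 5.08% lower. Of 21 other cyclin genes tested, 4 were called higher and 0 lower, with a median log2 fold change of 0.38. Besides Ccna2 and Ccnb1 these were Ccnf, a cyclin-like F-box protein of G2, with counts of 403 and 282 in WT and 734 and 840 in MYC-KI (0.87, adjusted p = 0.0461), and Ccnl1, a cyclin of transcription and splicing, with 1345 and 1160 against 2477 and 2799 (0.73, adjusted p = 0.0308). Of 14 other Cdk genes, 0 were called higher and 1 lower: Cdk14, a kinase linked to Wnt signalling, was counted 1148 and 1035 times in WT and 753 and 979 times in MYC-KI (-0.69, adjusted p = 0.0329). The median over these 14 was 0.11. Without MYC-KI replicate 1, Ccnf (adjusted p 0.0870) was not called, and Cdk14 was not called without either MYC-KI sample in turn (0.0536 and 0.0509).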
